A study of Homo sapiens with 6 samples.

Results

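The genes described here are 10 genes for carcinoembryonic antigen-related cell adhesion molecules (CEACAMs) and mucins of the epithelial surface, CEACAM1, CEACAM5, CEACAM6, CEACAM7, MUC1, MUC4, MUC15, MUC16, MUC20 and MUC21, out of 26822 gene symbols in the RNA-seq table. They were chosen by the measured values of these same samples, so their changes are given as a description and carry no test. MCF10A, an established line of non-tumorigenic human breast epithelial cells, received a non-targeting siRNA (siNT) or siRNAs against the transcription factor PAX9 (siPAX9), each at 30 nM for 72 h. Polyadenylated RNA of 3 siNT and 3 siPAX9 samples was sequenced. The deposited table holds 1 FPKM value (fragments per kilobase of transcript per 1000000 mapped fragments) per group and locus, pooled over the samples, so no spread between replicates can be given and no difference below has a replicate check. The table carries no read totals, so the depth of each sample was not used here.

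CEACAMs are immunoglobulin-like glycoproteins. CEACAM1 spans the membrane and carries a signalling tail, whereas CEACAM5, CEACAM6 and CEACAM7 are held at the surface by a glycosylphosphatidylinositol (GPI) anchor. Transmembrane mucins are long proteins whose repeated, serine- and threonine-rich stretches carry dense O-linked sugars. They form the glycocalyx of wet epithelia, and MUC1 is the best known of them in the breast.

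PAX9, the target of the siRNAs, was listed at 2.80 FPKM in siNT and 0.325 FPKM in siPAX9, a log2 ratio of -3.10. The direction matched the labels. The table gives PAX9 an interval of chromosome 14 from 37126773 to 37642998 on hg19, which also takes in its neighbour SLC25A21.

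MCF10A expressed basal and some luminal keratin genes in both groups. All 9 basal mammary markers reached 1 FPKM, led by KRT17 at 1718 FPKM in siNT and 2088 FPKM in siPAX9, and KRT6A was 2.61-fold higher in siPAX9. Of 8 luminal markers, 4 reached 1 FPKM. The luminal keratin genes KRT18 and KRT8 were at 212 and 119 FPKM and at 51.7 and 58.7 FPKM. Both were above the basal keratin gene KRT14, at 31.4 and 40.9 FPKM. They were below the basal keratin genes KRT17, KRT5, at 1558 and 1807 FPKM, and KRT6A, at 368 and 959 FPKM. KRT19, ESR1, PGR and ELF5 were each under 1 FPKM in both groups. The luminal marker FOXA1 went from 1.10 FPKM to 2.86 FPKM.

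Of the 10 genes, 8 had a higher FPKM in siPAX9 by at least 2-fold or from a listed 0, and 0 were lower by that measure. The table marks 3 of the 8, CEACAM5, MUC4 and MUC15, as having too few alignments for a comparison. Without a minimum level, 18.9% of the 19769 named loci above 0 in either group were higher by the same rule. Because the genes were selected on this contrast, nothing is read from that comparison. In siNT, 6 of the 10 were listed at 0, and in siPAX9 only CEACAM7 was. Only 5 genes, CEACAM6, MUC1, MUC16, MUC20 and MUC21, reached 1 FPKM in either group, and a gene that reached it only in siPAX9 had to differ. Among named loci with at least 1 FPKM in a group, 7.79% of 12965 were at least 2-fold higher and 7.25% were at least 2-fold lower in siPAX9. With 1 added to each FPKM, which damps ratios of low values, 4 of the 10 genes were at least 2-fold higher, against 4.94% of the same loci. The median log2 change with 1 added was 0.82 over the 10 genes and -0.05 over the 12965 loci. The loci all reached 1 FPKM in a group, and over the 5 genes that did so the median was 1.13. Nothing is read from these comparisons either, because the genes were selected on this contrast.

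**Figure D1:**
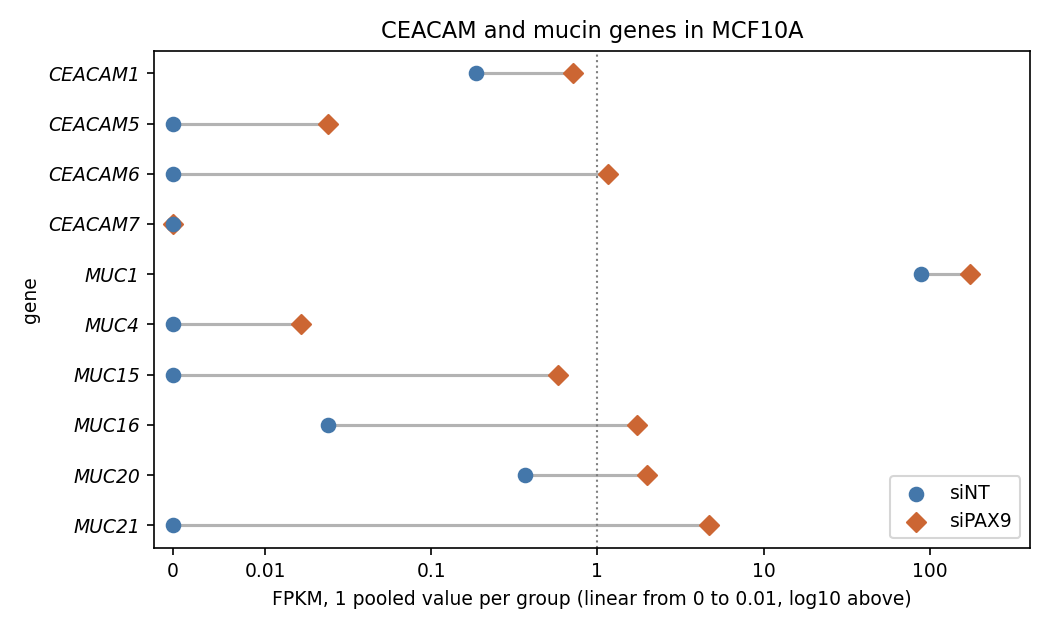
FPKM of each gene in siNT (circles) and siPAX9 (diamonds), 1 pooled value per group, on an axis that is linear from 0 to 0.01 and log10 above, with a dotted line at 1 FPKM. MUC1 stood at 88.2 and 176 FPKM, and the other genes stayed under 5 FPKM in both groups.

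MUC1, a transmembrane mucin of most glandular epithelia, was by far the most abundant of the genes. It was listed at 88.2 FPKM in siNT, above 97.3% of named loci, and at 176 FPKM in siPAX9, above 98.9%. The ratio was 1.99, just under 2-fold, and the log2 ratio of 1.00 became 1.07 once changes were centred on the median of loci with at least 1 FPKM in both groups, which was -0.08. MUC1 supplied 94.2% of the FPKM summed over the 10 genes in siPAX9, and that sum went from 88.8 to 187. GENCODE places MUC1 on the reverse strand of chromosome 1, from 155158300 to 155162706 on GRCh37, whose coordinates hg19 shares. Its interval in the table also holds TRIM46, which was listed at 0.303 FPKM in siNT and 0.994 FPKM in siPAX9. The nearest named locus before it, KRTCAP2, was listed at 99.4 and 72.4 FPKM. The nearest one after it, the 96-base microRNA locus MIR92B, was listed at 0 and 19.4 FPKM and is marked as having too few alignments for a comparison.

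MUC16, the very long mucin that carries the CA125 antigen, went from 0.0240 FPKM to 1.73 FPKM. The ratio was 72.4, and it rests on a siNT value near 0. FPKM divides by length, and the canonical MUC16 transcript holds 43816 bases in 84 exons. At that length, 1.73 FPKM equals 75.96 fragments per 1000000 mapped fragments (FPM), against 1.05 FPM in siNT. MUC21, the human counterpart of epiglycanin, with a shorter transcript of 3651 bases, was listed at 0 in siNT and 4.69 FPKM in siPAX9, which equals 17.1 FPM. MUC21 thus ranked above MUC16 per length of transcript and below it in fragments. The lengths are those of GENCODE canonical transcripts, and the isoforms behind the deposited FPKM were not given in the sources used here. The deposited interval of MUC21 ends at 30956414, before the end of its canonical transcript at 30957680. Part of the 3651 bases thus lies outside it, and 17.1 FPM may be too high.

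MUC16 lies on the reverse strand of chromosome 19, from 8959520 to 9092018. Its nearest named loci, MBD3L1 and the olfactory receptor gene OR1M1, were listed at 0 in both groups. MUC21 lies on the forward strand of chromosome 6, from 30951495 to 30957680, in the major histocompatibility complex. The table has 7 rows for it, and the 6 on alternative haplotype contigs were at 0 in both groups. So were all 1273 rows on such contigs. The mucin gene MUC22, its nearest named locus on the far side, was listed at 0.00330 FPKM in siNT and 0.0603 FPKM in siPAX9. On the near side HCG21 was listed at 0 and 0.0619 FPKM, and DPCR1, which has the same interval, at 0.00376 and 0.330 FPKM.

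MUC20 and MUC4 lie 13.2 kb apart on chromosome 3, MUC20 on the forward strand from 195447849 to 195460422 and MUC4 on the reverse strand from 195473642 to 195538800. MUC20, a mucin known from kidney and other epithelia, went from 0.365 FPKM to 1.98 FPKM, a ratio of 5.44. MUC4, a large mucin that binds the receptor ERBB2, was listed at 0 in siNT and at 0.0165 FPKM in siPAX9, or 0.277 FPM at its length of 16756 bases. The 2 neighbours were thus both higher in siPAX9, at levels far apart.

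MUC20 is an uncertain locus. Of the 2418 stretches of 76 bases, the read length searched, in its canonical transcript, 71.1% also occurred in a transcript of another gene. The pseudogene MUC20P1 held 48.8% of them and the long non-coding RNA MUC20-OT1 held 35.4%. MUC20-OT1 is an overlapping gene, whose exons cover 1002 bases (40.2%) of the MUC20 exons on the same strand. A further property of MUC20 is that 20.6% of its stretches occurred more than once within the transcript, against 17.6% in MUC4 and 0.425% in MUC16. Unnamed loci around it were also higher in siPAX9. The locus 211 bases before MUC20, partly over exons of MUC20-OT1, went from 0.274 FPKM to 2.03 FPKM, and one over the exons of MUC20P1 went from 0.292 FPKM to 1.56 FPKM. The locus of LINC00969, MIR570 and SDHAP2 went the other way, from 46.3 FPKM in siNT to 23.5 FPKM in siPAX9. It holds 13434 bases in exons of MUC20-OT1, more than any other locus over that gene. MUC20 was far below it, at 0.365 and 1.98 FPKM. The loci over MUC20-OT1 thus do not share a direction. How reads were divided among MUC20, its pseudogene and MUC20-OT1 was not tested.

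**Figure D2:**
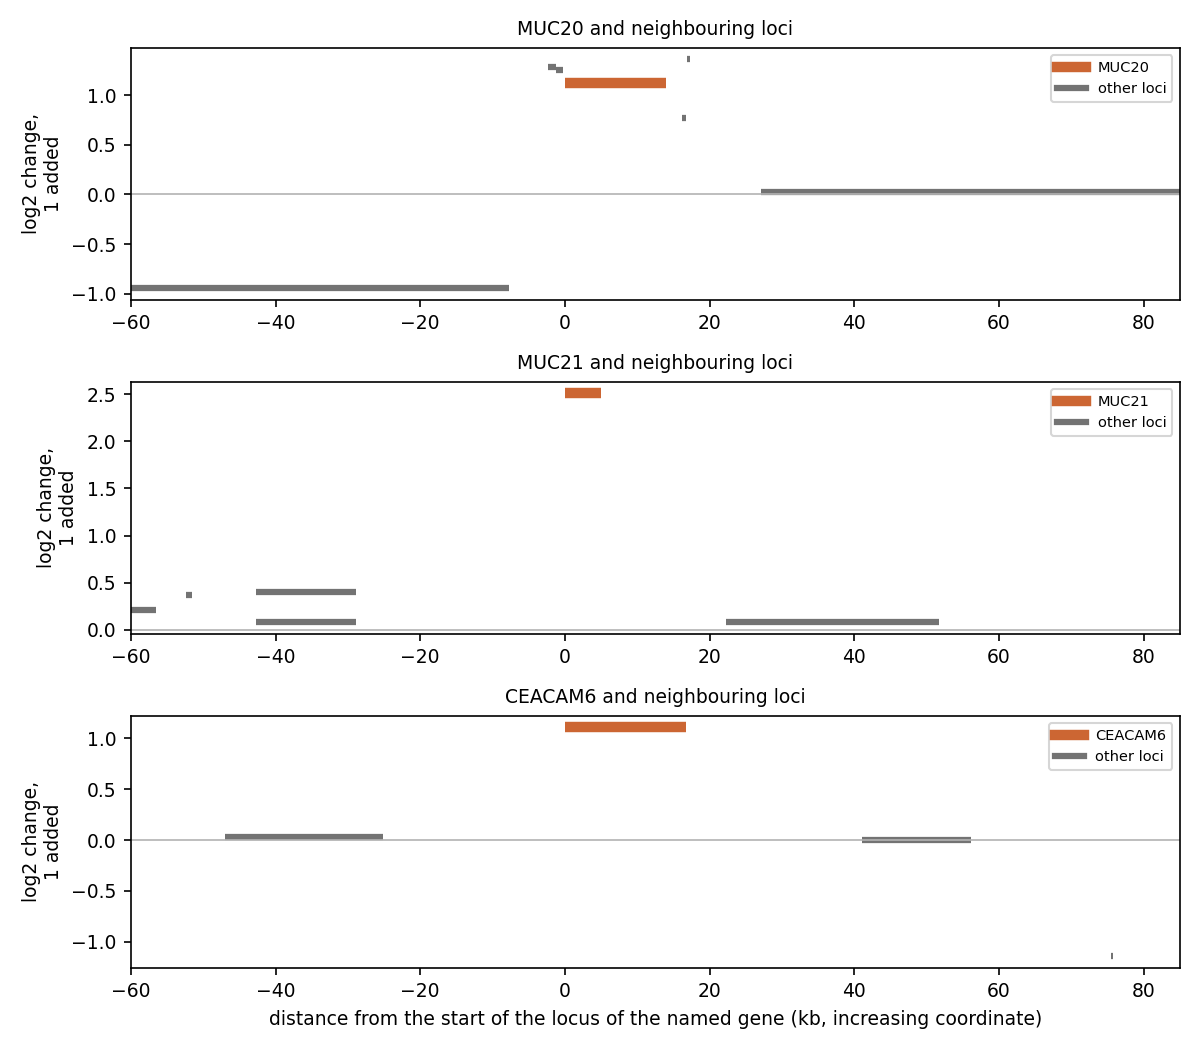
Log2 change with 1 added (vertical axis) of MUC20, MUC21 and CEACAM6 and of loci around each, by distance in kb from the start of the named locus. Each bar spans a locus, and the unnamed loci beside MUC20 lie around its own 1.13, whereas CEACAM5, before CEACAM6, lies at 0.03.

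MUC15, a small membrane mucin first found in milk, was listed at 0 in siNT and 0.575 FPKM in siPAX9, or 1.95 FPM. Its exons on chromosome 11, from 26580579 to 26593810 on the reverse strand, share 175 bases with exons of ANO3 on the opposite strand. ANO3 itself was listed at 0.00710 FPKM in siNT and 0 in siPAX9. Whether the library kept the strand is not given in the sources used here, so reads of such overlapping pairs cannot be told apart.

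CEACAM6, a GPI-anchored adhesion molecule, was listed at 0 in siNT and 1.16 FPKM in siPAX9, the highest level among the 4 CEACAM genes. CEACAM1, the form with a signalling tail, went from 0.185 FPKM to 0.716 FPKM, a ratio of 3.87 at levels under 1 FPKM. CEACAM5, whose product is the carcinoembryonic antigen itself, was listed at 0 and 0.0239 FPKM, the second of which equals 0.0837 FPM. CEACAM7 was listed at 0 in both groups. The 4 levels summed to 0.185 FPKM in siNT and 1.90 FPKM in siPAX9, of which CEACAM6 made up 61.1%.

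CEACAM7, CEACAM5 and CEACAM6 follow each other on chromosome 19. CEACAM7 lies on the reverse strand from 42177231 to 42192199, CEACAM5 on the forward strand from 42212545 to 42234353, and CEACAM6 on the forward strand from 42259438 to 42276116. CEACAM5 and CEACAM6 are 25.1 kb apart, and CEACAM1, from 43011458 to 43032633 on the reverse strand, lies 735 kb beyond CEACAM6. The genes that flank this row, CEACAM4 before CEACAM7 and CEACAM3 after CEACAM6, were listed at 0 in both groups, so that of these 5 genes CEACAM6 alone reached 1 FPKM. The interval given for CEACAM1 overlaps the antisense RNA LIPE-AS1, listed in a row with LOC101930071 at 36.7 and 55.8 FPKM, which shares 131 exon bases with CEACAM1 on the opposite strand. CNFN, the nearest named locus before that interval, went from 1.28 FPKM to 2.88 FPKM, and PSG3, the nearest after it, was listed at 0 in both groups.

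The coding sequences of CEACAM5 and CEACAM6 were 90.9% identical over 1033 aligned bases, and CEACAM1 and CEACAM6 were 89.2% identical over 1035. Of the 76-base stretches, 2.22% of CEACAM1, 2.69% of CEACAM5, 3.10% of CEACAM6 and 0 of CEACAM7 occurred in another gene's transcript. These are shares of the sequence and not of the reads. Of the shared stretches, 89 in CEACAM5 and 75 in CEACAM6 lie in the gene ENSG00000267881, which overlaps exons of both on the same strand. Stretches shared with another CEACAM gene numbered 42 in CEACAM1, 3 in CEACAM5 and 3 in CEACAM6. In CEACAM1, 34 of the shared stretches lie in LIPE-AS1, whose row, shared with LOC101930071, was far above CEACAM1 in FPKM in both groups, so the level of CEACAM1 is uncertain.

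The RefSeq promoter table on GRCh38.p14, a build other than that of the expression table, matched 7 of the 10 genes, with 9 entries, and holds none for MUC15, MUC20 and MUC21. The promoters of the 4 CEACAM genes are shown because the genes are close relatives whose levels differed. Over the 250 bases before the start, CEACAM5 and CEACAM7 were 84.4% identical, CEACAM6 and CEACAM7 80.2%, CEACAM5 and CEACAM6 78.5%, and CEACAM1 between 72.0% and 75.8% against the others. Capitals mark the E-box letters CACGTG and the GC-box letters GGGCGG, on either strand, in the last 120 bases before the start. The stretches lie at chr19:41708506-41708625 on the forward strand for CEACAM5, chr19:41755410-41755529 on the forward strand for CEACAM6, chr19:41688271-41688390 on the reverse strand for CEACAM7 and chr19:42528482-42528601 on the reverse strand for CEACAM1.
CEACAM5: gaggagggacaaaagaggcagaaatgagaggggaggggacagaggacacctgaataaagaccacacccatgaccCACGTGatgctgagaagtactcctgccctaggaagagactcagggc
CEACAM6: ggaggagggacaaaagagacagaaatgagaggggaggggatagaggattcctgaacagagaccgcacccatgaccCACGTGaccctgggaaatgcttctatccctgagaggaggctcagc
CEACAM7: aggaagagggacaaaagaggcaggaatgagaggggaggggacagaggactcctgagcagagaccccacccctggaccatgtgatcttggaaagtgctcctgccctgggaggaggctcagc
CEACAM1: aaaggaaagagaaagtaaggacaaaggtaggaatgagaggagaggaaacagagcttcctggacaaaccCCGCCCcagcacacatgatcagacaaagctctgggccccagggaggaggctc

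The letters CACGTG stood 46 bases before the start in CEACAM5 and 45 bases before it in CEACAM6, and in no other member entry. Of all 35116 promoters in the table, each of 300 bases, 7.26% held them. CEACAM6 and CEACAM5, the 2 genes with these letters, were at 1.16 FPKM and 0.0239 FPKM in siPAX9. MUC1 is shown beside them as the gene with by far the highest level. Its stretch lies at chr1:155192916-155193035 on the reverse strand, with GC-box and TATAAA letters in capitals.
MUC1: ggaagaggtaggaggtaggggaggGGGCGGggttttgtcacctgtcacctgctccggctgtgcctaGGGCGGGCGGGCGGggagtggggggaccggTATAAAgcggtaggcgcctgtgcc

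GC-box letters occurred 4 times in the MUC1 promoter, some matches overlapping each other, and at least once in entries of 5 of the 7 genes, against 44.95% of all promoters. TATAAA stood 24 bases before the MUC1 start and also occurred in CEACAM6, and 11.5% of all promoters held it. Of the other letters searched on both strands, GCGTGACCA and GCGGAACGG, which are only some of the known PAX9 binding sequences (the others were not searched), had 0 matches in the 9 entries and occurred in 0.157% and 0.225% of all promoters. The ETS letters CCGGAA also had 0 matches, against 17.2%, and the AP-1 letters TGANTCA occurred in 1 entry, the second of MUC16, against 7.71%. A match or its absence describes these letters in this window and is no evidence of binding.

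**Figure D3:**
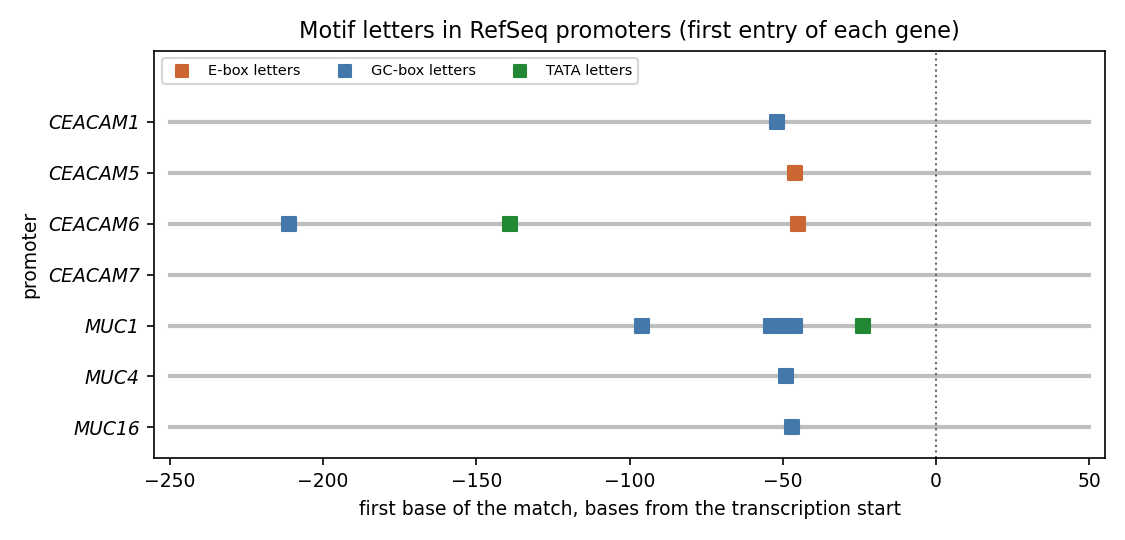
Positions of E-box, GC-box and TATA letters in the first promoter entry of 7 genes, in bases from the transcription start (dotted line). The E-box letters lie 46 bases before the start in CEACAM5 and 45 in CEACAM6, and MUC1 holds 4 GC-box matches.

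The gene lists here and in the next paragraphs were chosen with earlier results of these data known, so their counts are a description only. Most other genes of both families were under 1 FPKM in both groups. Of 8 other CEACAM genes, only CEACAM19 reached 1 FPKM, at 4.72 FPKM in siNT and 7.78 FPKM in siPAX9. None of 10 pregnancy-specific glycoprotein genes, the placental branch of the family, reached 1 FPKM, and the most abundant, PSG4, was at 0.0169 and 0.312 FPKM. None of 6 other transmembrane mucin genes did so either, with MUC22 the highest. Of 8 secreted mucin genes, MUC19 was 5.85-fold higher, from 1.02 FPKM to 5.99 FPKM. The most abundant of that list, OVGP1, an oviductal glycoprotein gene, shares its row with WDR77 and was at 26.5 and 28.0 FPKM.

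Genes for the enzymes that build the sugars of mucins showed few or mixed differences. Over the 12965 named loci with at least 1 FPKM in a group, 7.79% were higher and 7.25% lower by 2-fold. Of 17 genes for the initiation of O-glycans, 11 reached 1 FPKM, 0 were higher and 2 were lower by 2-fold. These were GALNT14, from 3.22 FPKM to 0.494 FPKM, and GALNT15, from 6.17 FPKM to 1.87 FPKM. GALNT2, the most abundant initiating transferase gene, was at 68.9 and 51.9 FPKM. Of 18 genes for extension and capping, 3 were higher and 1 was lower among the 14 that reached 1 FPKM. GCNT3, which makes branched O-glycans in mucus-secreting tissue, went from 0.0572 FPKM to 1.61 FPKM. GCNT4 and the sialyltransferase gene ST6GALNAC2 were 3.24-fold and 2.32-fold higher. FUT1, a fucosyltransferase gene, went the other way, from 2.17 FPKM to 0.701 FPKM, and ST6GALNAC4, the most abundant of the list by the mean of both groups though not in siPAX9, was at 25.8 and 16.7 FPKM. With 1 added, only GCNT3 of the extension and capping genes stayed past 2-fold, whereas GALNT14 and GALNT15 of the initiation genes both did. All 15 genes for the synthesis and transfer of the GPI anchor, on which CEACAM5, CEACAM6 and CEACAM7 depend, reached 1 FPKM, and 0 of them differed by 2-fold. GPAA1, in a row with EXOSC4 and MIR6847, led them at 102 and 81.2 FPKM.

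**Figure D4:**
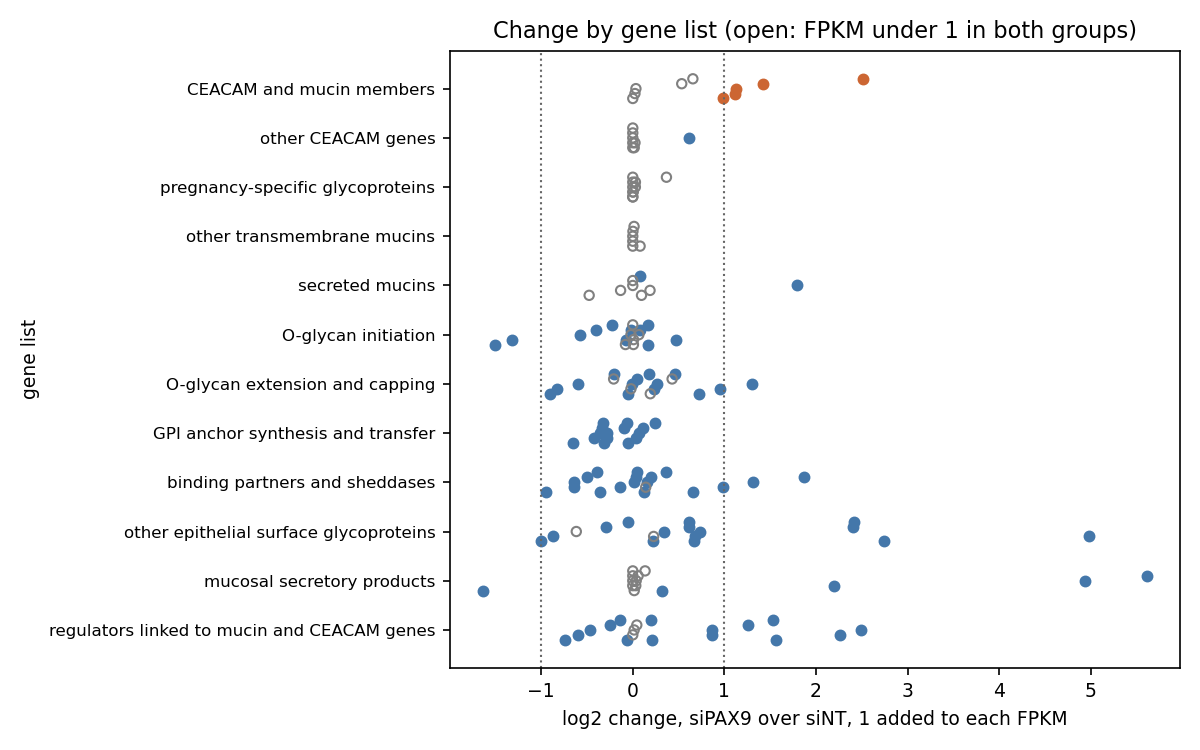
Log2 change with 1 added of each gene in 12 lists, the members on top (orange) and the other lists below (blue), with open symbols for genes under 1 FPKM in both groups and dotted lines at 2-fold. The 15 GPI anchor genes all lie within 2-fold, whereas mucosal secretory products lie on both sides.

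Among 19 binding partners and sheddases, 2 of the 18 at 1 FPKM or more were higher and 0 were lower. The shares over all named loci at that minimum were 7.79% and 7.25%. MSLN, which encodes mesothelin, a ligand of MUC16, went from 38.2 FPKM to 143 FPKM in a row shared with MIR662. ERBB3, a receptor of the family with which transmembrane mucins associate, went from 3.06 FPKM to 9.05 FPKM. The galectin gene LGALS3, the most abundant of the list, was at 103 and 206 FPKM.

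Other epithelial surface glycoproteins had 4 genes higher and 1 lower among 15 of 17 at 1 FPKM or more. Over all named loci at that minimum, 7.79% were higher and 7.25% lower. PSCA was 7.29-fold higher and LYPD3 6.46-fold, and EPCAM was lower, at 34.3 and 16.7 FPKM, a difference that is just under 2-fold with 1 added. CD24 was also among the higher genes, and its level is left out because the table places it at a copy on another chromosome.

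Among mucosal secretory products, only 5 of 14 genes reached 1 FPKM, with 3 higher and 1 lower, against 7.79% and 7.25% of all named loci. PI3, an elastase inhibitor, was at 28.0 FPKM in siNT and 1414 FPKM in siPAX9. The iron-binding protein gene LCN2 went from 3.73 FPKM to 144 FPKM, and the protease inhibitor gene SLPI from 296 FPKM to 1358 FPKM. The lactoferrin gene LTF was lower, at 137 and 43.6 FPKM.

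Of 18 regulators linked to these gene families, 15 reached 1 FPKM, 5 were higher and 0 lower. The shares over all named loci were 7.79% and 7.25%. Nothing is read from this comparison, because the list was chosen with earlier results of these data known. All 5 are transcription factor genes of epithelia. GRHL3 went from 2.57 FPKM to 19.0 FPKM, GRHL1 from 3.45 FPKM to 12.1 FPKM, and OVOL1 from 0.0497 FPKM to 4.02 FPKM. The ETS factor genes EHF and ELF3 were 2.97-fold and 2.48-fold higher. KLF5, the most abundant by the mean of both groups though not in siNT, was at 95.4 and 110 FPKM.

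**Figure D5:**
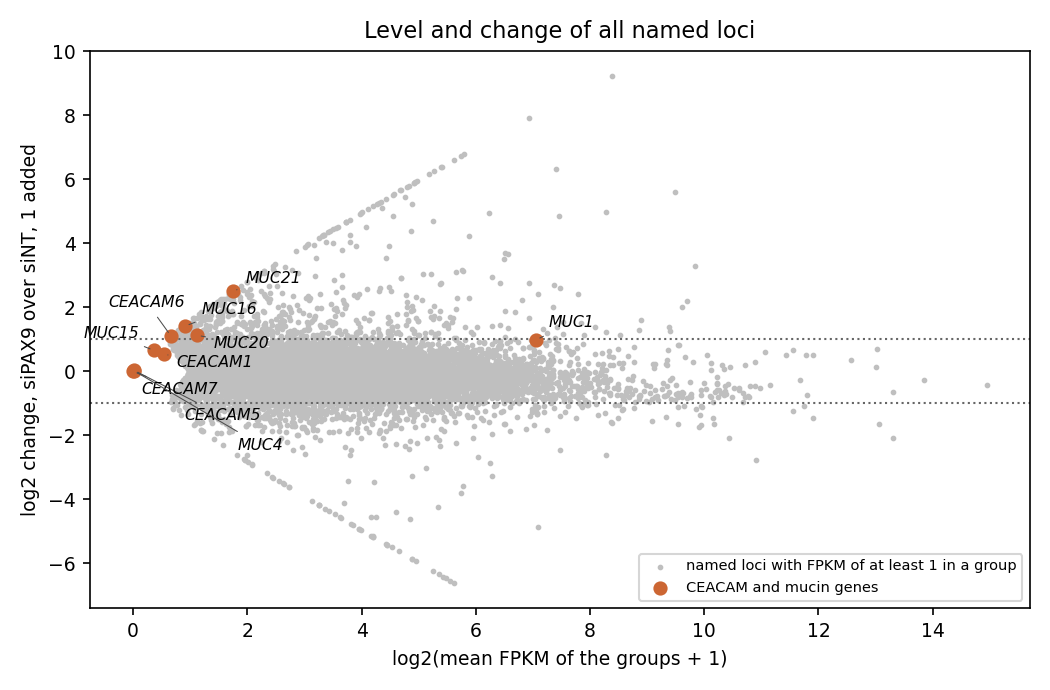
Log2 change with 1 added (vertical axis) against the log2 mean FPKM plus 1 (horizontal axis) of 12965 named loci (grey) and the CEACAM and mucin genes (orange), with dotted lines at 2-fold. MUC21 has the highest change of the 10 genes, 2.51, and MUC1 is the only one at a high level.

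In the order of log2 changes with 1 added, MUC21 was at place 125 of the 12965 loci, MUC16 at 367, MUC20 at 528, CEACAM6 at 541 and MUC1 at 656. Loci listed at 0 in siNT and with at least 1 FPKM in siPAX9, as MUC21 and CEACAM6 were, made up 0.602% of the loci, and loci with the reverse pattern 0.432%. Of the 78 loci with the first pattern, 29 are not marked as having too few alignments. By their FPKM in siPAX9, MUC21 was at place 17 of these 29 and CEACAM6 at place 29. Of the loci placed above MUC21, all but SPRR3 and OVOL1-AS1 are microRNA or small nucleolar RNA loci, led by MIR3164 at 242 FPKM. SPRR3 and OVOL1-AS1 were at 9.17 and 4.92 FPKM in siPAX9. FPKM divides by length, so these places mix kinds of loci of unlike length.

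Markers of other cell types were mostly at or near 0. Of 8 leukocyte markers, PTPRC, the defining surface phosphatase, was at 0.0166 and 0.0922 FPKM and 5 were listed at 0 in both groups, but CD14, the most abundant, went from 14.4 FPKM to 56.5 FPKM and made the summed level 14.5 and 56.6 FPKM. Of 5 fibroblast markers, DCN, the most abundant, went from 5.85 FPKM to 37.9 FPKM and COL1A1 from 0.454 FPKM to 4.13 FPKM, while COL3A1 was listed at 0 in both groups. Their summed level was 6.38 and 42.1 FPKM. Of 3 endothelial markers, PECAM1 was lower, at 2.58 and 0.495 FPKM, and VWF and CDH5 stayed under 0.02 FPKM, for sums of 2.58 and 0.516 FPKM. The part of these differences in the results was not tested, and in bulk RNA more cells of a kind and more RNA per cell cannot be told apart.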

How the data were processed

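RNA-seq of 3 siNT and 3 siPAX9 samples was processed by the authors with Partek Flow, Bowtie 2 (UCSC hg19) and Cufflinks, as the study's methods and the submitters' processing notes give it. The deposited values are FPKM, 1 per locus and group, made by the authors from the pooled samples of each group. Of 41656 loci, 27678 carried a symbol. Columns of the authors' own comparison (log2 fold change, test statistic, p-value, q-value and a significance flag) were not used. A symbol took the row with the highest mean of both groups. Changes were log2 ratios of siPAX9 to siNT, also with 1 added, and a gene was called past 2-fold. A minimum of 1 FPKM in the higher group was applied where stated. Without replicate values no test was made. The counting was tested on simulated data. The table carries no depth per sample, and it marks loci with too few alignments for a comparison. FPKM times the GENCODE canonical transcript length gave fragments per 1000000 mapped fragments. Of 21608 single-symbol loci whose gene is in GENCODE v44lift37 on GRCh37, 99.0% overlapped it. Named genes were the members, up to 6 genes of each list past 2-fold with 1 FPKM, each list's most abundant gene by the mean of both groups, PAX9 and the nearest named loci; other genes were chosen after their values were seen. 1 gene that this rule names is not reported here. The planned comparison of proteins was replaced by one of coding sequences, and the TATA letters were added after the data were seen. Loci within 60 kb were drawn. Members and lists were chosen with earlier results of these data known. Python 3.11.15, numpy 2.4.6, pandas 2.3.3, Biopython 1.88 (global alignment) and matplotlib 3.10.9 were used. The alternatives tried were pseudocounts, folds, minimum levels, centring, summed rows and single-symbol rows.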

Additional observations from a re-analysis of the deposited data

How the results depend on the processing

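No paired analysis was possible because each group has 1 pooled value, so leaving out a replicate was not run either. The count of 8 genes called higher became 4 with 1 added and 4 with a minimum of 1 FPKM, and lay between 6 and 9 under the other settings. The median log2 ratio was 2.20 over the 4 genes above 0 in both groups, and 2.28 when centred. It was 0.82 with 1 added (10 genes) and 1.84 with 0.1 added (10 genes). With the minimum it was 2.44, the value of MUC20, over MUC1, MUC16 and MUC20 only. CEACAM6 and MUC21, listed at 0 in siNT, have no ratio and dropped out. Among the 12965 named loci with at least 1 FPKM in a group, 1010 were higher and 940 lower. Higher loci numbered 640 with 1 added. A fold of 1.5 gave 1910 higher and 2206 lower, a fold of 4 gave 417 and 222, no minimum gave 3734 and 2155, and a minimum of 5 FPKM gave 499 and 623. Centring gave 1121 and 823. Over the 11 lists, 18 genes were higher and 5 lower, 39 and 11 without a minimum, and 3 lower with 1 added. Higher loci outnumbered lower ones as reported, and lower loci outnumbered higher ones with a fold of 1.5 and with the minimum of 5 FPKM. The cause of that turn was not tested. Of 44 counts for single lists under the alternatives, 19 were 0 under both settings, 11 of the other 25 stayed within 1.5 times and 14 did not. Values near 0 rest on few fragments, and the pooled table gives no error for them.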
